A study of Homo sapiens with 4 samples.

Results

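The genes described here are 10 members of the Notch pathway. These comprise the ligands DLL1, DLL3, JAG1 and JAG2, the receptors NOTCH1, NOTCH2 and NOTCH3, and the HES and HEY family genes HES1, HES6 and HEY1. They were chosen by name from the 60612 genes of a count table, with Ensembl gene IDs mapped to symbols, by a rule that uses no measured value, although earlier results of these data were known when the list was drawn up. RNA sequencing was carried out on IMR-32, a human neuroblastoma line long established in culture. The cells were stably transduced with a hairpin that doxycycline (1 µg/mL for 48 h) switches on, a control hairpin in 2 libraries (shControl, genotype WT in the labels) and a hairpin against NeuroD1 in the other 2 (shNeuroD1, labelled NeuroD1 knockdown). All 4 libraries were poly(A)-selected, and the series text calls the control cells parental. The headings of the study's own comparison table give both knockdown libraries the same NeuroD1 hairpin, so other effects of that hairpin cannot be told apart from the loss of NeuroD1. Whether replicate libraries came from separate cultures is not given, so p-values here measure only the spread between these libraries, which may be technical.

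Notch receptors are activated by ligands on the neighbouring cell. Binding leads to cleavage by ADAM proteases and gamma-secretase, and the freed intracellular domain joins RBPJ and Mastermind proteins on DNA, where it switches on HES and HEY genes. HES1 and HEY1 proteins then repress proneural genes, the basic helix-loop-helix (bHLH) activators to whose family NeuroD1 belongs. Proneural factors in turn activate Delta ligands, and this loop is known for setting which cells of the developing nervous system differentiate. HES6 stands apart from the HES repressors: it is induced by proneural factors and opposes HES1.

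The start regions of 3 members carry letters that these factors are known to read, and they are shown because HES6 and JAG2 moved furthest in opposite directions among the abundant members, while HES1 is the textbook target. RefSeq promoters (GRCh38.p14, 250 bases before to 50 after the start, on the gene's strand) were found for 7 of the 10 members, and none for DLL1, DLL3 and HEY1. In HES6 and JAG2 the capitals mark CANNTG, the E-box of bHLH factors, which reads the same on both strands, and in HES6 also TATAAA on the gene's strand. In HES1 they mark TGGGAA, the core letters of RBPJ sites, searched with its reverse TTCCCA. The windows are chr2:238239989-238240288 on the minus strand for HES6, chr14:105168727-105169026 on the minus strand for JAG2 and chr3:194135898-194136197 on the plus strand for HES1.
HES6: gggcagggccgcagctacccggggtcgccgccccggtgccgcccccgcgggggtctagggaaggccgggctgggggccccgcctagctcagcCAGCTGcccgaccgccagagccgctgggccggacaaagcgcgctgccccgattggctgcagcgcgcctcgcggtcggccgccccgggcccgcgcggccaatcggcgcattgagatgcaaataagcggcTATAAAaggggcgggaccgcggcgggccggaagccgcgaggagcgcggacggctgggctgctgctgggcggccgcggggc
JAG2: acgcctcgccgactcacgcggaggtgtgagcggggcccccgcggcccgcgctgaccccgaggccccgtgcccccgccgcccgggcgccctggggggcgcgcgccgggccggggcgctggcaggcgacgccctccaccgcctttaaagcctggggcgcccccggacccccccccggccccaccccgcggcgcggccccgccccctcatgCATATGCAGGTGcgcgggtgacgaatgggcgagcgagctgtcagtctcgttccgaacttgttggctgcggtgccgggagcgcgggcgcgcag
HES1: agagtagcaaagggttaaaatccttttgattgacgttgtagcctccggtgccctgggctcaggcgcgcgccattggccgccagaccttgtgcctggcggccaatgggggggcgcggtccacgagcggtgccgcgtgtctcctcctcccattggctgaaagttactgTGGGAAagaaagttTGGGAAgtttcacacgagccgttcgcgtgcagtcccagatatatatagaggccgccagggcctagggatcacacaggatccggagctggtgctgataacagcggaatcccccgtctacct

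HES6 held 1 E-box, CAGCTG, whose first base lay at position -158 from the start, and TATAAA at -30. JAG2 held the adjoining E-boxes CATATG at -42 and CAGGTG at -36, and HES1 held TGGGAA at -84 and at -70. No E-box lay in the windows of the other 5 members searched, and no CAGATG or CATCTG in any of the 7. Such matches are common: CANNTG was found in 68.7% of 35116 RefSeq promoters of this length, CAGCTG in 17.9%, CAGATG or CATCTG in 14.7%, TGGGAA or TTCCCA in 24.0% and TATAAA in 7.33%.

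The libraries held between 14665210 and 16482463 counts. NEUROD1, the targeted gene, was at 14.6% of the control level in shNeuroD1 (6174 and 6582 counts against 969 and 886). This was a log2 fold change (log2FC) of -2.77 with an SE of 0.0504 (edgeR adjusted p 8.6e-29). All 10 adrenergic neuroblastoma markers were measured well enough to test, 4 lower and 4 higher by an edgeR adjusted p under 0.05. Among all 17537 genes tested, 28.2% were lower and 26.8% higher by this rule, which the marker counts below share. The summed level of the adrenergic markers was 2226 to 2248 CPM (counts scaled to library size) in shControl and 2070 to 2107 in shNeuroD1. Of 11 mesenchymal-state markers 8 were tested, with 5 lower and 2 higher, PRRX1 was at 0 in every library, and the sum was 499 to 501 CPM against 729 to 737. VIM alone went from 243 and 239 to 549 and 544 CPM, and without it the sum was 256 and 261 CPM in the controls, against 188 and 185 after knockdown. Of 6 glial markers 4 were tested, with 2 higher (the sum was 5.50 to 5.60 against 8.81 to 10.2 CPM). None of 4 haematopoietic markers passed the filter on low counts. Of 4 epithelial markers 3 were at 0, and EPCAM went from 0 and 1 counts to 28 and 21. Whether these shifts have a part in the results below was not tested.

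The members split in both directions after NeuroD1 knockdown. Of the 10 members 8 passed the filter on low counts, and HES1 and NOTCH2 did not. By an adjusted p under 0.05, 4 were higher in shNeuroD1 (DLL1, JAG2, NOTCH1 and HEY1), 3 were lower (DLL3, NOTCH3 and HES6), and JAG1 did not pass. Among all 17537 genes tested, 26.8% were called higher and 28.2% lower by the same rule, so a call by this rule was common. With a log2 fold change beyond 1 in size as well, 3 members were higher (DLL1, JAG2 and HEY1) and 0 lower, where 8.79% of all genes were higher and 5.14% lower. The median log2 fold change was 0.68 over the 8 members tested and 0.008 over all genes. In bulk libraries a change in the share of cells that transcribe a gene and a change in the RNA per cell cannot be told apart.

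**Figure D1:**
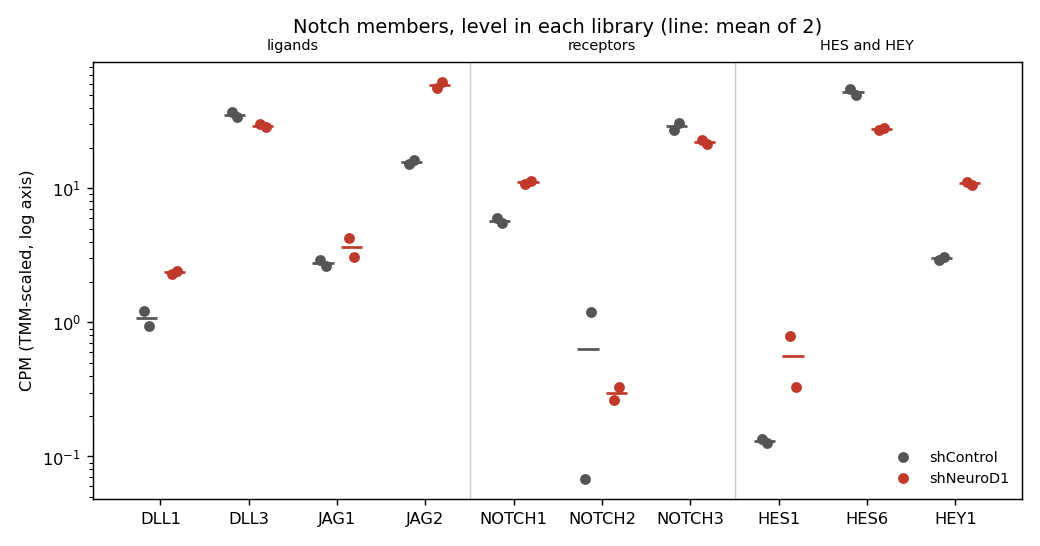
Level of each of the 10 members in each library, in CPM scaled by TMM, on a log axis; grey points are the 2 shControl libraries, red points the 2 shNeuroD1 libraries, and short lines the mean of 2. JAG2 went from 15.8 to 59.3 CPM and HEY1 from 3.0 to 10.9, HES6 from 52.4 to 27.6, while NOTCH2 and HES1 lay near 1 CPM or below.

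Levels between genes were compared per kilobase of annotated exon. In shControl the order was HES6 (25.7 ± 2.13 CPM per kb, SD, n = 2), DLL3 (13.6 ± 0.873), NOTCH3 (3.10 ± 0.269), JAG2 (2.47 ± 0.130), HEY1 (0.929 ± 0.0368), NOTCH1 (0.552 ± 0.0335), DLL1 (0.336 ± 0.0606), JAG1 (0.299 ± 0.0207), HES1 (0.0634 ± 0.00334) and NOTCH2 (0.0376 ± 0.0475). Neighbours in this order did not overlap between libraries, apart from DLL1 with JAG1 and HES1 with NOTCH2. In shNeuroD1 HES6 (13.6 ± 0.424 CPM per kb, SD, n = 2) and DLL3 (11.2 ± 0.363) still led, followed by JAG2 (9.26 ± 0.662), HEY1 (3.37 ± 0.146) and NOTCH3 (2.36 ± 0.0906). NOTCH1 (1.07 ± 0.0485), DLL1 (0.733 ± 0.0283), JAG1 (0.396 ± 0.0902), HES1 (0.271 ± 0.158) and NOTCH2 (0.0176 ± 0.00275) came after them. JAG2 and HEY1 thus stood above NOTCH3 after knockdown and below it in the controls. Only JAG1 and HES1 overlapped among neighbours there.

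Among the ligands, JAG2 was 3.75-fold higher in shNeuroD1. JAG2 (ENSG00000184916, GRCh38 chromosome 14, 105140981 to 105168824, minus strand), a Serrate-type ligand, collected 224 and 260 counts in the controls, against 856 and 948 after knockdown. The level rose from 15.8 ± 0.832 to 59.3 ± 4.23 CPM (SD, n = 2 each), and the groups lay far apart. The log2FC was 1.91 (SE 0.0836, adjusted p 5.9e-19 by edgeR's quasi-likelihood test with Benjamini-Hochberg adjustment). Over every scaling, filter and count tool tried, and with any library left out, it stayed between 1.83 and 2.02. The gene shares 469 exon bases with AL512356.1, which had 0 counts in every library.

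DLL1 (ENSG00000198719, chromosome 6, 170282206 to 170306565, minus strand), an activating Delta ligand, was also higher, at a low level. Its counts were 18 and 15 in the controls, against 35 and 37 after knockdown, with no overlap. The level rose from 1.08 ± 0.196 to 2.37 ± 0.0913 CPM (SD, n = 2 each), which is a log2FC of 1.13 (SE 0.346, edgeR adjusted p 0.0064). DLL1 is called by edgeR with all libraries, but DESeq2 gave 1.11 with an adjusted p of 0.132, and edgeR without shControl replicate 2 gave 0.95 with an adjusted p of 0.0630. Its gene lies across FAM120B on the opposite strand, with 0 exon bases shared, and the use of strand in the counting is not given in the sources used here.

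DLL3 (ENSG00000090932, chromosome 19, 39498895 to 39508481, plus strand), a divergent Delta ligand that stays mostly inside the cell and does not activate receptors on neighbours, went the other way. Counts of 547 and 538 in the controls stood against 458 and 438 after knockdown. The level fell from 35.5 ± 2.28 to 29.4 ± 0.949 CPM (SD, n = 2 each), leaving 82.9% of the control. This log2FC was -0.27 (SE 0.0807, edgeR adjusted p 0.0054). The fall is small and the call was lost in several settings: DESeq2 gave an adjusted p of 0.0961, and edgeR gave 0.0994 under library size alone, 0.106 without shControl replicate 1 and 0.0569 without shNeuroD1 replicate 2.

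JAG1 (ENSG00000101384, chromosome 20, 10637684 to 10673999, minus strand), the other Serrate-type ligand, collected 43 and 42 counts in the controls, against 65 and 47 after knockdown. Its level was 2.78 ± 0.193 and 3.68 ± 0.839 CPM (SD, n = 2 each). Its log2FC of 0.40 (SE 0.248, edgeR adjusted p 0.171) did not pass the test, and shNeuroD1 replicate 2 lay close to the controls. Leaving out 1 library moved it between 0.15 (without shNeuroD1 replicate 1) and 0.62 (without shNeuroD1 replicate 2). An antisense gene shares 79 exon bases with JAG1 and had 0 counts.

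The make-up of the ligand group shifted accordingly. Of the summed CPM per kb of the 4 ligands, DLL3 took 82.2% and 80.5% in the controls, against 53.6% and 50.4% after knockdown. JAG2 took 13.8% and 15.9%, against 41.0% and 44.6%. DLL1 and JAG1 together stayed minor in each library, at most 3.45% for DLL1 and 2.14% for JAG1. These shares are a description and were not tested.

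**Figure D2:**
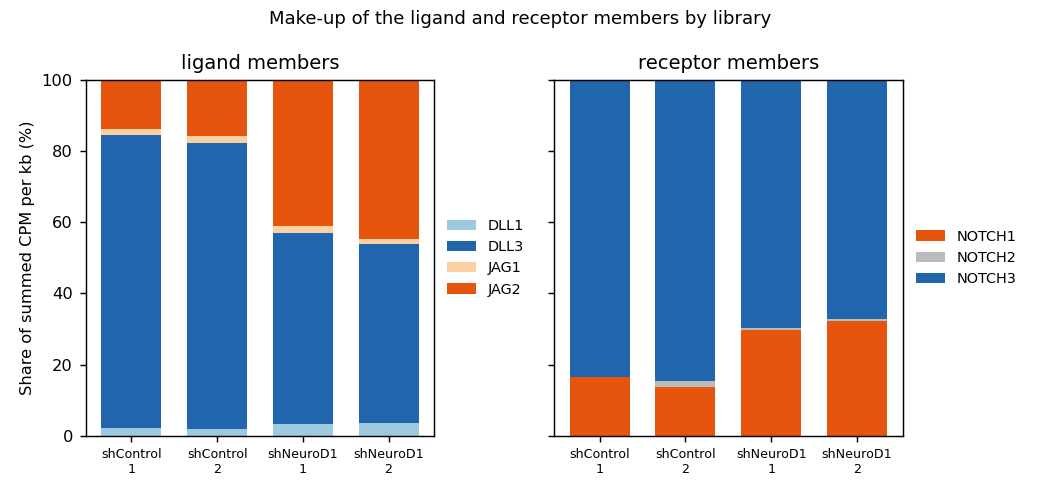
Share of each ligand (left) and each receptor (right) in the summed CPM per kb of its group, in percent, with 1 bar per library. DLL3 fell from a mean of 81.3% to 52.0% of the ligand sum while JAG2 went from 14.8% to 42.8%, and NOTCH1 went from 15.0% to 30.9% of the receptor sum.

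Among the receptors, NOTCH1 was 1.93-fold higher and NOTCH3 was at 76.2% of the control level. NOTCH1 (ENSG00000148400, chromosome 9, 136494433 to 136545786, minus strand) collected 88 and 87 counts in the controls, against 163 and 174 after knockdown. The level rose from 5.72 ± 0.348 to 11.1 ± 0.504 CPM (SD, n = 2 each). NOTCH1 thus had a log2FC of 0.95 (SE 0.154, edgeR adjusted p 3.5e-06), just inside the limit of 1. It passed that limit under library size alone, at 1.06, and without shControl replicate 1, at 1.01.

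NOTCH3 (ENSG00000074181, chromosome 19, 15159038 to 15200981, minus strand), the most abundant receptor per exon length in all 4 libraries, collected 403 and 491 counts in the controls, against 347 and 329 after knockdown. It fell from 29.1 ± 2.53 to 22.2 ± 0.851 CPM (SD, n = 2 each). Its log2FC was -0.39 (SE 0.0909, edgeR adjusted p 0.00046), and the groups did not overlap in CPM. Without shControl replicate 2, the higher control, it was -0.30 with an edgeR adjusted p of 0.0624.

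NOTCH2 (ENSG00000134250, chromosome 1, 119911553 to 120069626, minus strand) was close to absent. Counts were 1 and 19 in the controls, against 4 and 5 after knockdown, so the controls lay on both sides of the knockdown libraries. Summed over libraries, the ratio of shNeuroD1 to shControl was 0.453, with a 95% interval of 0.181 to 1.04 that covers counting error only, and no difference was detectable at this depth. The human-specific copies of its first exons share its sequence, and of these NOTCH2NLC collected 35 and 33 counts in the controls, against 44 and 38 after knockdown, while NOTCH2NLA, NOTCH2NLB and NOTCH2NLR had 0. Reads that match several of these genes may be missing or misplaced in these counts, the 0 counts included. Of the summed CPM per kb of the 3 receptors, NOTCH1 took 16.5% and 13.6% in the controls, against 29.7% and 32.2% after knockdown, and NOTCH3 took 83.4% and 84.6% against 69.8% and 67.2%.

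Of the HES and HEY members tested, HEY1 rose and HES6, which stands apart from the HES repressors, fell. HEY1 (ENSG00000164683, chromosome 8, 79764010 to 79767863, minus strand), a direct target of Notch signalling in many tissues, collected 43 and 49 counts in the controls, against 171 and 161 after knockdown. It rose 3.63-fold, from 3.0 ± 0.119 to 10.9 ± 0.472 CPM (SD, n = 2 each). Its log2FC was 1.86 (SE 0.179, edgeR adjusted p 1.5e-10), and it lay between 1.81 and 1.97 over the other count fits and with any library left out.

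HES6 (ENSG00000144485, chromosome 2, 238238267 to 238240662, minus strand) had the highest level of the members per exon length in every library. By CPM it led in the controls only. It collected 818 and 784 counts in the controls, against 411 and 430 after knockdown. It fell from 52.4 ± 4.33 to 27.6 ± 0.864 CPM (SD, n = 2 each), leaving 52.7% of it. In log2FC this was -0.92 (SE 0.0769, edgeR adjusted p 5.9e-12). Without shControl replicate 2 it was -1.01 and past the limit of 1 as well.

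HES1 (ENSG00000114315, chromosome 3, 194136145 to 194138732, plus strand), the best known Notch target, was barely detected in these cells. Each shControl library held 2 of its counts, against 12 and 5 after knockdown, with no overlap. The summed ratio of shNeuroD1 to shControl was 4.27, with a 95% interval of 1.39 to 17.5 for counting error only, and the shControl libraries held fewer than the 3 counts taken as the detection floor. Fitted without the filter on low counts, its log2FC was 2.01 (edgeR adjusted p 0.113), and DESeq2 gave 2.08 with an adjusted p of 0.264. The replicated tests therefore did not call it. Its RBPJ letters, shown above, thus lie in the promoter of a gene with few counts in either group.

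**Figure D3:**
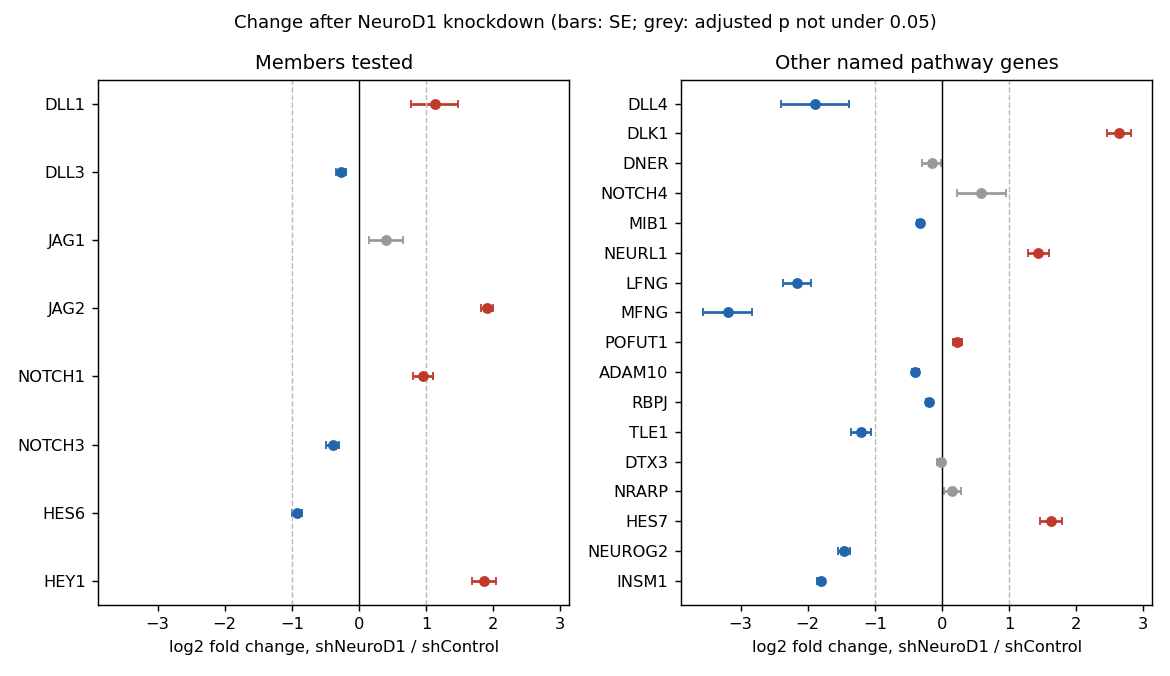
Log2 fold change (shNeuroD1 over shControl) of the 8 members tested (left) and of the other named genes of the pathway (right), from edgeR. Bars are SE, blue and red points have an adjusted p under 0.05, grey points do not, and dashed lines mark a log2 fold change of 1 in size; JAG2 (1.91) and HEY1 (1.86) lie furthest right among members and HES6 (-0.92) furthest left.

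The deposited transcript tables give a second reading of the same libraries, as FPKM (fragments scaled for length and sequencing depth) of transcript starts. Summed over starts, HES6 went from 17.0 and 15.1 FPKM in shControl to 12.6 and 10.2 in shNeuroD1. HEY1 went from 0.550 and 0.539 FPKM to 2.64 and 1.57. NOTCH3 went from 1.77 and 2.17 FPKM to 1.73 and 1.64. In these 3 genes the groups did not overlap and differed in the direction of the counts, in NOTCH3 only narrowly (1.77 against 1.73). With 2 against 2 libraries an exact permutation test cannot go below p = 0.33, so such separation carries little weight. The share of all genes separated in this way is not given. In DLL3 the groups overlapped: 11.6 and 8.25 FPKM in shControl lay on both sides of 9.11 and 9.61 in shNeuroD1. With limma on log2(FPKM + 1), none of the 4 members with a mean of at least 1 FPKM passed, with -0.46 for HES6 (adjusted p 0.153), 0.99 for HEY1 (adjusted p 0.106), -0.14 for NOTCH3 (adjusted p 0.646) and -0.06 for DLL3 (adjusted p 0.870).

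JAG2 starts were assigned by the authors' assembly to 1 locus joined with NUDT14, the gene next to it, so they were found by position and entered no FPKM fit. Their sum was 1.14 and 1.84 FPKM in the controls, against 3.83 and 5.53 after knockdown. The first exon differed between libraries. Its form from 105168355 to 105168824 had 0 and 1.16 FPKM in the controls, against 3.58 and 5.36 after knockdown, and the longer form, from 105167757 to 105168824, had 1.00 and 0.664 FPKM, against 0 in both knockdown libraries. Both forms begin at the same base, 105168824, upstream of the RefSeq start at 105168776. The JAG2 E-boxes shown above lie between these bases, so they fall inside the assembled first exon and not upstream of it.

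In HES6 at least 95.5% of start FPKM in each library lay at the start 238240038, the same base as the RefSeq start of the window shown. HEY1 likewise used its first start for at least 94.3%, and NOTCH3 used its upstream start for 94.7% and 95.5% in the controls, against 83.7% and 93.4% after knockdown. HES1 had no start listed in shControl but 0.260 and 0.0725 FPKM after knockdown, at 194136148, which is also its RefSeq start. JAG1 likewise had none listed in shControl, against 0.502 and 0.417 FPKM. NOTCH1 starts were listed in 1 library only, at 0.0190 FPKM, although the gene had 87 to 174 counts. These tables therefore missed low members that the counts measured.

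**Figure D4:**
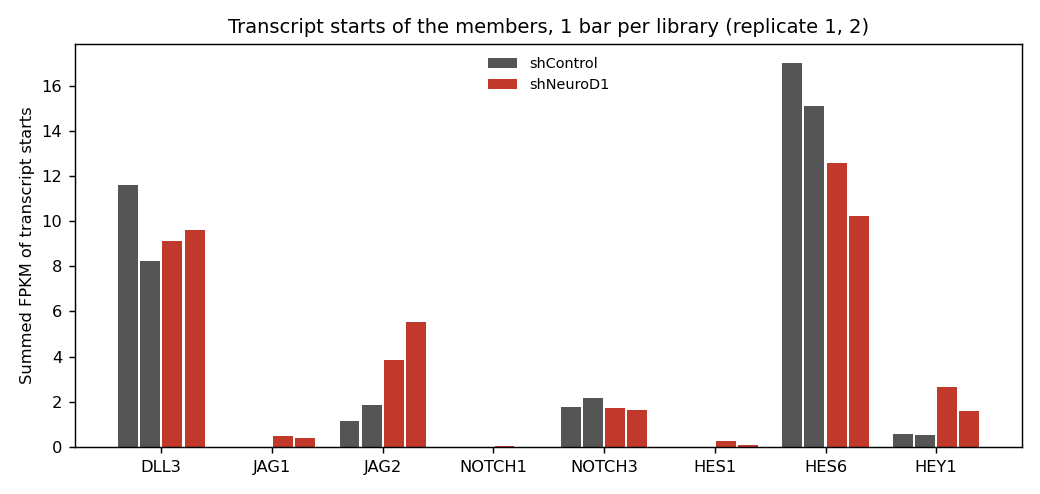
Summed FPKM of the transcript starts of 8 members, 1 bar per library (shControl grey, shNeuroD1 red, replicate 1 then 2). JAG2 (by position) went from 1.14 and 1.84 to 3.83 and 5.53, whereas DLL3 at 11.6 and 8.25 in shControl spanned the shNeuroD1 values.

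The rest of the pathway was described through 62 further genes, of which 55 passed the filter. By adjusted p alone 19 fell in shNeuroD1, 15 rose and 21 did not pass, where 28.2% of all genes were lower and 26.8% higher. With the fold limit added, 6 were lower and 3 higher, against 5.14% lower and 8.79% higher among all genes, and the median log2 fold change of the 55 was -0.01. In the FPKM fits at most 1 of these genes was called. The members' neighbours in the pathway thus included large single changes with no common direction.

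Of 4 other ligands, DLL4 fell and DLK1 rose. DLL4, a Delta ligand best known from vessels, had 19 counts in each shControl library and 5 in each shNeuroD1 library (log2FC -1.89, SE 0.51, edgeR adjusted p 0.0022), but DESeq2 did not call it (adjusted p 0.0794). DLK1, a non-canonical ligand that lacks the receptor-activating domain, went from 31 and 38 to 225 and 203 counts (2.64, SE 0.18, edgeR adjusted p 4.8e-14), the largest rise among the named genes. DNER, with the highest mean CPM of them over all libraries, had a log2FC of -0.15 (SE 0.14, edgeR adjusted p 0.372). The remaining receptor, NOTCH4, was low, with 20 and 16 counts in the controls, against 22 and 32 after knockdown (0.59, SE 0.369, edgeR adjusted p 0.181).

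Genes that act on ligands and receptors held the largest falls of the list. LFNG and MFNG encode Fringe glycosyltransferases, which add sugars to Notch receptors and set which ligands they answer. LFNG fell from 164 and 173 counts to 25 and 50 (log2FC -2.16, SE 0.208, edgeR adjusted p 1.6e-10). MFNG fell from 50 and 72 counts to 6 and 7 (-3.19, SE 0.37, edgeR adjusted p 8.1e-09). POFUT1, which adds the first fucose, rose slightly (0.23, SE 0.061, edgeR adjusted p 0.0018). Its call was lost in DESeq2 (adjusted p 0.0801) and in edgeR without shControl replicate 1 (0.0740), shControl replicate 2 (0.0584) or shNeuroD1 replicate 2 (0.0771). Of these 5 genes 2 were lower and 2 higher, POFUT1 included. Of 4 ubiquitin ligases of ligand endocytosis, NEURL1 rose (1.44, SE 0.158, edgeR adjusted p 2.9e-09), and MIB1, the most abundant, fell (-0.33, SE 0.0438, edgeR adjusted p 1.1e-07). Of 9 genes of receptor cleavage, 3 were lower and 3 higher, close to the 28.2% and 26.8% of all genes, and none passed the fold limit. ADAM10, a protease of the cleavage that follows ligand binding, was at -0.39 (SE 0.0472, edgeR adjusted p 1.6e-08).

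In the nucleus, 4 of 8 genes of the RBPJ complex and its coactivators were lower and 1 higher, beside 28.2% and 26.8% of all genes. RBPJ itself was at -0.19 (SE 0.0448, edgeR adjusted p 0.00062), and under library size alone at -0.08 with an edgeR adjusted p of 0.151. Of 11 corepressor genes 5 were lower and 1 higher. TLE1, a Groucho protein that HES repressors recruit, fell from 206 and 210 counts to 95 and 84 (-1.21, SE 0.146, edgeR adjusted p 1.9e-08). Of 7 inhibitors or turnover genes 6 were tested, 1 lower and 2 higher, and DTX3, the most abundant, was at -0.02 (SE 0.0507, edgeR adjusted p 0.780). NRARP, a target that feeds back on the receptor, was at 0.16 (SE 0.132, edgeR adjusted p 0.332).

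Other HES and proneural genes surrounded the HES and HEY members. HES7, the repressor of the somite clock, rose from 60 and 58 counts to 196 and 167 (1.63, SE 0.169, edgeR adjusted p 7.8e-10). The remaining HES and HEY targets are named after their values were seen. HES5 had 0 counts in the controls, 1 and 4 after knockdown, and was not tested. HEY2 had 7 and 5 counts in the controls, 0 and 1 after knockdown, and was not tested either. HES4 had a log2FC of -0.01 (SE 0.152, edgeR adjusted p 0.945), and HEYL rose from 26 and 39 to 59 and 66 counts (0.95, SE 0.255, edgeR adjusted p 0.0020). NEUROG2, a proneural activator of Delta ligands, fell from 817 and 809 counts to 272 and 316 (-1.46, SE 0.0837, edgeR adjusted p 5.8e-16). INSM1, a zinc finger factor of neuroendocrine differentiation, fell from 2848 and 2798 to 775 and 831 counts (-1.81, SE 0.0569, edgeR adjusted p 1.0e-22).

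**Figure D5:**
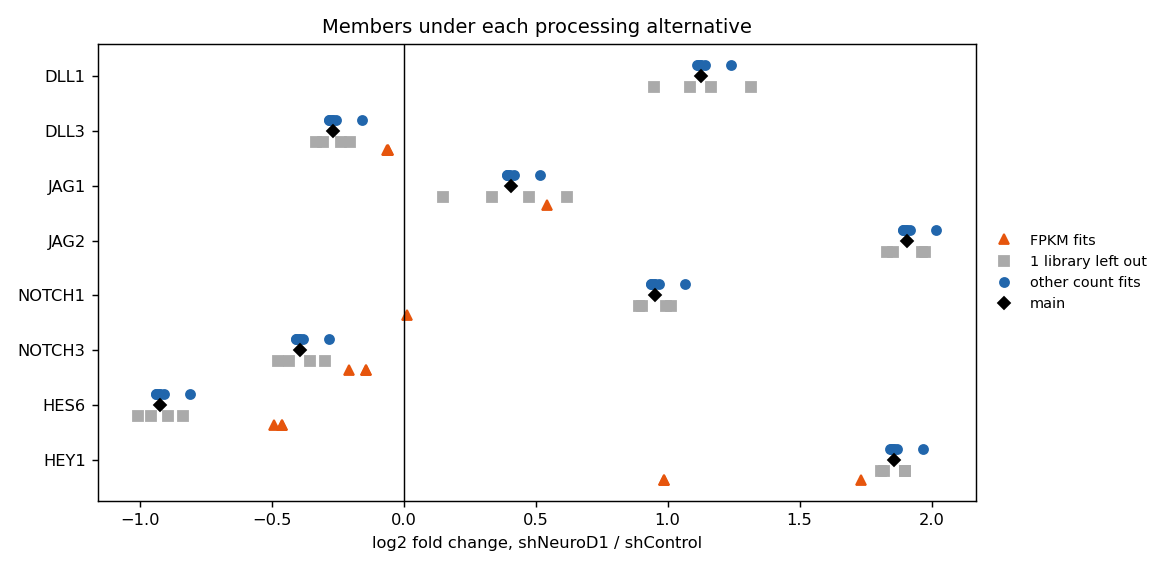
Log2 fold change of the 8 members tested in the reported fit (diamonds), other count fits (circles), fits with 1 library left out (squares) and limma fits of summed start FPKM (triangles). Count fits stay together, JAG2 between 1.83 and 2.02, while FPKM fits lie nearer 0 for HES6, HEY1, NOTCH3 and DLL3; DLL1 and JAG2 have no FPKM fit, and NOTCH1 and JAG1 have 1, without a filter.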

How the data were processed

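RNA sequencing libraries of IMR-32 cells (2 shControl, 2 shNeuroD1, grouped by title) were used. Raw counts per gene (60612 Ensembl IDs) were deposited, and the authors also gave FPKM per library of transcript starts, ends and splicing events of assembled transcripts. The submitters' processing notes name cutadapt 1.9.1, HISAT2 2.0.1, HTSeq 0.6.1, DESeq2 and hg38. The use of strand and the tool behind the FPKM tables are not given in the sources used here. Unlisted events were taken as 0.

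Counts were fitted in edgeR 4.0.16 (R 4.3.3): filterByExpr with a minimum count of 10, which kept 17537 genes, TMM, quasi-likelihood F test, two-sided, Benjamini-Hochberg over all genes tested. SE is the size of the log2 fold change over the square root of F. The test was checked on simulated counts. Alternatives were other scalings and filters, DESeq2 1.42.0, the replicate number as a block, limma 3.58.1 on log2(FPKM + 1) and log2(FPKM + 0.1), and leaving out each library. JAG2 and NEUROD1 were left out of the FPKM fits, since their starts belong to merged loci.

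Deviations of same-numbered libraries were hardly correlated (0.0278 over 10560 genes). No pairing by number showed in this check, which cannot exclude that same-numbered libraries were handled together. Replicates differed by more than sampling noise (chi-square per degree of freedom 2.53 in shControl, 1.56 in shNeuroD1). Coordinates and exon lengths are those of GENCODE 29. The members and lists were chosen with earlier results of these data known. Named genes are the members, NEUROD1, the other pathway genes past both thresholds and the most abundant by CPM in each role, and those said to be named after their values were seen. Of these, 2 genes are not reported here. Intervals cover counting error only.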

Additional observations from a re-analysis of the deposited data

Results flagged for a closer look

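Splicing and transcript end events entered no comparison between groups. Those of the members were looked at again where the highest FPKM in shNeuroD1 was at least 0.25 and at least 5 times the highest in shControl. None of them was tested, and an event missing from a table is counted as 0.

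HES6 gave the highest value. An exon form whose upstream boundary lies at 238239562 on chromosome 2 (minus strand), rather than at 238239568, had 8.31 FPKM in shNeuroD1 replicate 1, 0.155 in shControl replicate 1 and 0 in the other libraries. Read through the splicing event over the neighbouring exon (238239661 to 238239747), which carries the same 8.31 FPKM, that form made up 67.4% of the paired forms in shNeuroD1 replicate 1, 0.976% in shControl replicate 1 and 0% in the other 2. It reached this level in 1 library only.

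JAG1 had a transcript start at 0.502 FPKM in shNeuroD1 replicate 1 and a transcript end listed at 0.574 in that library only. A DLL1 transcript end was listed at 0.547 FPKM in shNeuroD1 replicate 2 only. The HES1 start reached 0.260 FPKM. A DLL3 exon form and the spliced intron beside it were listed at 0.794 FPKM in shNeuroD1 replicate 2 only. A retained JAG2 intron (105155989 to 105157706) was listed at 0.533 FPKM in shNeuroD1 replicate 2 only.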

How the results depend on the processing

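Every member tested kept its direction in all alternatives, and the calls of JAG2, NOTCH1, HEY1 and HES6 held in every count fit. DLL3 lost its call under library size alone (-0.16), in DESeq2 (-0.28) and with 1 library left out (range -0.33 to -0.20). DLL1 lost it in DESeq2 (1.11) and with 1 library left out (0.95 to 1.32), NOTCH3 with 1 library left out (-0.48 to -0.30). In limma on log2(FPKM + 1), log2(FPKM + 0.1) and log2(FPKM + 1) without a filter, no member was called: DLL3 was at -0.0588, -0.0626 and -0.0588, NOTCH3 at -0.14, -0.21 and -0.14, HEY1 at 0.99, 1.73 and 0.99, HES6 at -0.46, -0.49 and -0.46, and NOTCH1, without a filter, at 0.0136. Members called were then 0 higher and 0 lower of 4, 4 and 7 tested, with 0 past both thresholds; of 38, 38 and 45 other pathway genes 1, 0 and 1 were lower, the same numbers past both, and 0 higher. Other pathway genes higher past both thresholds numbered 5 under library size alone, which moved the median of all genes to 0.12, and those higher at an adjusted p under 0.05 numbered 7 in DESeq2 and 7 to 12 with 1 library left out. Members lower past both thresholds were 0 to 1 with 1 library left out, where the 1 is HES6. DTX3 (-0.02) reversed to 0.0938 under library size alone and ranged from -0.0600 to 0.0172 with 1 library left out, and NRARP (0.16) from -0.0138 to 0.303; neither was called. The cause of these changes was not tested. With the replicate number as a block, JAG2 was at 1.91 and HES6 at -0.92, and no member call changed. All genes past both thresholds numbered 998 higher and 771 lower in DESeq2, and 122 to 187 higher and 144 to 206 lower in the FPKM fits. Alternatives for genes that are no members, and for all genes, were added after seeing the data.

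With 2 libraries a group, spread is estimated with help from other genes, and a group left with 1 library is assumed to vary like the other. HES1 and NOTCH2 stood below 1 CPM in the mean, where counting error limits any statement.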
